A study of Homo sapiens with 45 samples.

Results

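A set of 10 genes, grouped under the invasive and dedifferentiated state of melanoma cells, was followed through the A375 array series. They are the receptors AXL, EGFR and NGFR, the ligand WNT5A, the transcription factors ZEB1, ZEB2, SNAI2, TWIST1 and POU3F2, and the chromatin protein HMGA2. The 10 genes were chosen by name, with earlier results of these data known, from the 19775 genes with a name on the array. Each was read from its probe set with the highest mean over all arrays. The 10 genes have 36 probe sets in all, and for the comparisons with batch KD2 the other probe sets of a gene are given beside its main one. A375 is an established human melanoma line. The cells were transfected with siRNA at 100 nM, as the labels state it, with the reagent Oligofectamine, and RNA was taken after 48 h. The study's methods state another final concentration. Of 45 arrays, 39 carry RNA of cells given a targeting siRNA, each against another gene and each from 1 culture. A further 3 arrays carry RNA of cells transfected with control siRNA and 3 RNA of untreated A375 cells. The study places the 39 siRNA arrays in 3 experimental batches, KD1 with 9 arrays, KD2 with 23 and KD3 with 7. It gives no batch for the control siRNA and untreated arrays, and none was assigned here. In these bulk samples, fewer cells that express a gene and less RNA of it per cell cannot be told apart.

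Melanoma cells move between a melanocytic, differentiated state, which depends on the transcription factor MITF and its partner SOX10, and states in which MITF is low and the cells are invasive, resemble the neural crest, or both. AXL and EGFR are receptor tyrosine kinases that stand high in the MITF-low state, NGFR is the low affinity neurotrophin receptor and a mark of neural crest-like cells, and WNT5A drives motility through ROR and Frizzled receptors. ZEB1, ZEB2, SNAI2 and TWIST1 are factors of the epithelial-mesenchymal transition. In the melanocyte lineage, ZEB2 and SNAI2 belong to the differentiated state and ZEB1 and TWIST1 to the invasive one. POU3F2 is a neural POU factor that can repress MITF, and HMGA2 is an architectural chromatin protein held down by the let-7 microRNAs.

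Promoter sequence from RefSeq (GRCh38.p14) was used for 6 of the 10 genes, with 15 starts in all, and not for HMGA2, NGFR, SNAI2 and TWIST1. Each covers 300 bases around a start. The 4 promoters below are shown because WNT5A, POU3F2 and ZEB2 were lower together in batch KD3 while ZEB1 was higher. For WNT5A and ZEB1, which have several starts, the start with the most motif matches was taken. Capitals mark matches on either strand to CATGTG and CACGTG, E-box cores known for MITF, and to CACCTG, the E-box core known for ZEB and SNAI factors.
WNT5A promoter, chr3:55487257-55487556, minus strand: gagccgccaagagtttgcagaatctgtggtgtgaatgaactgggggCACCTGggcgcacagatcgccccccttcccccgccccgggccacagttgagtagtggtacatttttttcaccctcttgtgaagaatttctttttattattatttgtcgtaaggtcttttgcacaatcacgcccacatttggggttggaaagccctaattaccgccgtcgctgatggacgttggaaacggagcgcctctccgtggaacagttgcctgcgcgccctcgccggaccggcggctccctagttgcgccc
POU3F2 promoter, chr6:98834324-98834623, plus strand: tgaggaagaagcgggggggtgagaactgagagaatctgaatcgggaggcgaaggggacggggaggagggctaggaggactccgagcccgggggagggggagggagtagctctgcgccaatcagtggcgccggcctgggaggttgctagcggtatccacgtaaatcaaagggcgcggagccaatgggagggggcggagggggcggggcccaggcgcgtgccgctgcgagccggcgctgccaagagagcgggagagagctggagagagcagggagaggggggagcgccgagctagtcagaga
ZEB2 promoter, chr2:144520070-144520369, minus strand: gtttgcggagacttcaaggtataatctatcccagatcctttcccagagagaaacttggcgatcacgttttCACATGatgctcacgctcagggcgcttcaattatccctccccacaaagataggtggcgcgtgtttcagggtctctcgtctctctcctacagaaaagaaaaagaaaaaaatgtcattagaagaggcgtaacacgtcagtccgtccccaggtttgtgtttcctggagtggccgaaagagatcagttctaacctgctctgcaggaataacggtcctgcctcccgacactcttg
ZEB1 promoter, chr10:31318966-31319265, plus strand: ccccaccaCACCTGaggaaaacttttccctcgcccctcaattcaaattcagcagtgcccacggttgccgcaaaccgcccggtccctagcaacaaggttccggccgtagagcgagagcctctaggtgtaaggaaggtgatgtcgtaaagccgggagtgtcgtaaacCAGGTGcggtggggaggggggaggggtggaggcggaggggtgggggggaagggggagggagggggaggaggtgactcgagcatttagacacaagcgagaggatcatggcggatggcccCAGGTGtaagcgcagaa
The WNT5A promoter held 1 match to CACCTG, the ZEB1 promoter 3 matches to it, and the ZEB2 promoter 1 match to CATGTG. No match was found in the POU3F2 promoter. Among 35116 promoters of the same length, 11.1% held CATGTG, 7.26% CACGTG and 20.6% CACCTG, so each of these matches is common. The letters describe the window and do not show that a factor binds there.

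The values are RMA intensities on the log2 scale, and a probe set was taken as above noise when its median reached 1.5 times that of the 3' BioB control, 8.59 on the log2 scale. By this limit 4 of the 10 genes, AXL, WNT5A, ZEB1 and HMGA2, were above noise, as were 4800 of all 19775 genes. Array medians lay between 5.06 and 5.15. Of 37 siRNA targets with a gene name here, 37 were lowest in the array of their own siRNA, by log2 differences from the batch median of -2.27 to -0.65. The study selected siRNAs that lowered their target at least 2-fold, so this outcome follows in part from that choice. Control siRNA array 3 and untreated array 3 were near copies, with 95.4% of probe sets within 10% of each other, against at most 59.9% in any other pair. Melanoma lineage markers SOX10, MITF and S100B were above noise. TYR, PMEL, MLANA and TYRP1 were below it, and so were all 4 measured leukocyte markers, all 7 endothelial and fibroblast markers and 5 of 6 keratinocyte markers (all but KRT10).

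SNAI2 set batch KD3 apart from the other batches. In batch KD2 its log2 intensity was 6.22 at the lowest, 7.21 at the median and 7.95 at the highest, and in KD1 it lay at 6.63, 7.06 and 7.50. In KD3 the same 3 values were 4.63, 5.09 and 5.20, so that no KD3 array reached the range of the other batches. KD3 was lower than KD2 with a log2 difference of -2.20 (SE 0.14, adjusted p = 6.07e-18 by limma), a 4.58-fold lower intensity. SNAI2 is below the noise limit in all batches, so this fold concerns a dim probe set.

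**Figure D1:**
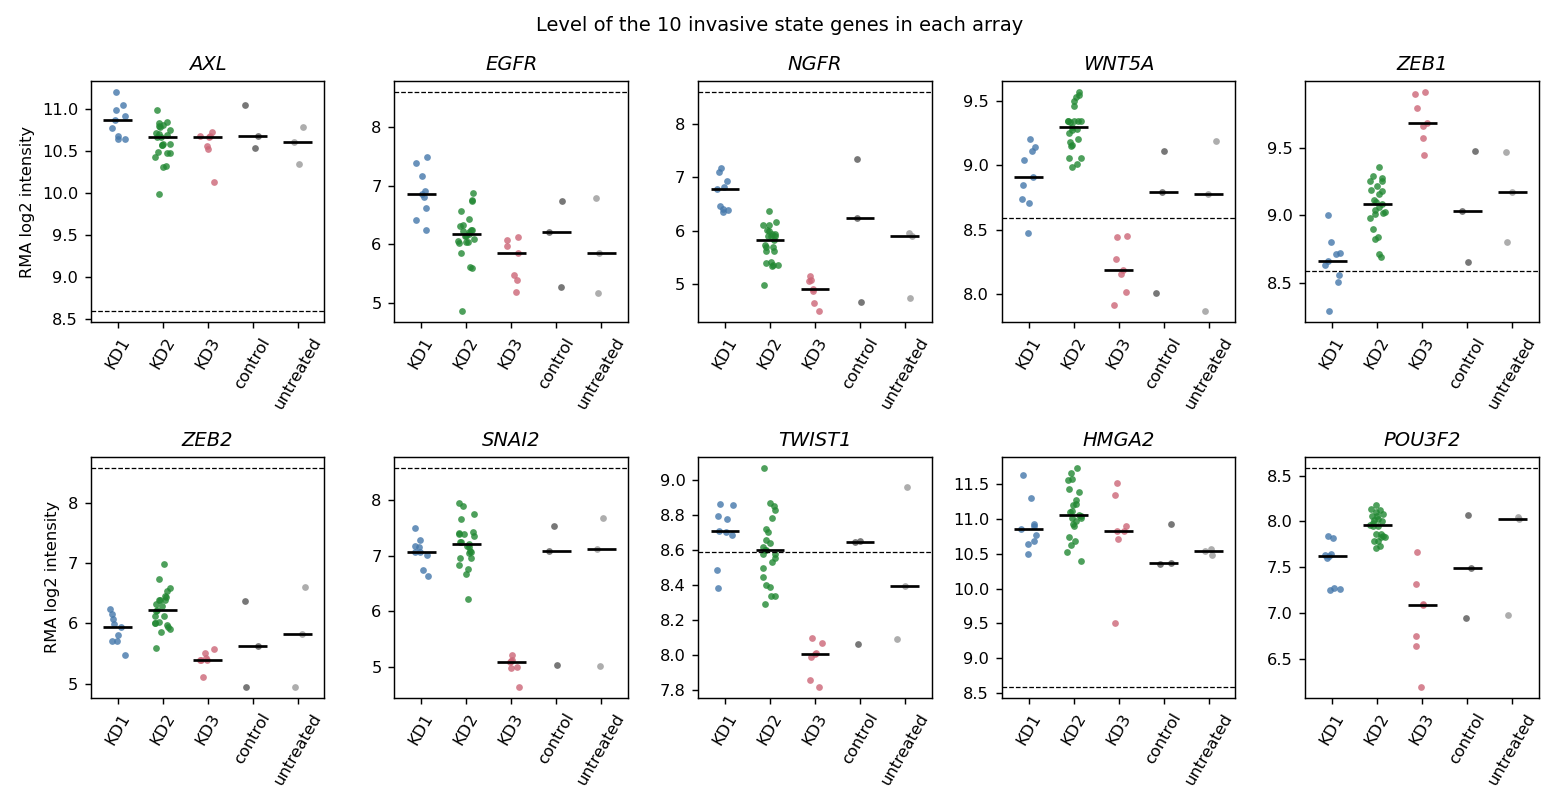
RMA log2 intensity (vertical axis, its own range in each panel) of the 10 genes in each array, with points for arrays, bars for medians of the 9 KD1, 23 KD2, 7 KD3, 3 control siRNA and 3 untreated arrays, and a dashed line at the noise limit of 8.59 where the panel reaches it. SNAI2 in KD3 stayed at or below 5.20 while KD1 and KD2 stayed at or above 6.22, and ZEB1 in KD3 lay above both other batches.

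The other genes that were lower in KD3 than in KD2 were WNT5A, POU3F2, NGFR, ZEB2, TWIST1 and EGFR. WNT5A had log2 intensities from 8.99 through a median of 9.30 to 9.57 in KD2 and from 7.91 through 8.18 to 8.45 in KD3. The groups did not overlap, and the difference of -1.08 (SE 0.08, adjusted p = 1.38e-15 by limma) is a 2.12-fold lower intensity. All 7 KD3 arrays lay below the noise limit for WNT5A and all 23 KD2 arrays above it. Its dimmer probe set was also lower, at -0.74.

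POU3F2 ranged from 7.71 through 7.96 to 8.18 in KD2 and from 6.19 through 7.09 to 7.66 in KD3, again without overlap. Its difference was -0.99 (SE 0.10, adjusted p = 2.60e-11 by limma). The second POU3F2 probe set was not called, at 0.22. ZEB2 ranged from 5.60 through 6.23 to 6.995 in KD2 and from 5.11 through 5.39 to 5.58 in KD3, with a difference of -0.84 (SE 0.11, adjusted p = 2.81e-08 by limma). Of its 4 other probe sets, those at -0.57 and -0.30 were called lower and those at -0.14 and 0.15 were not.

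TWIST1, at 8.29, 8.60 and 9.07 in KD2 and 7.82, 8.004 and 8.10 in KD3, did not overlap either, and differed, at -0.63 (SE 0.07, adjusted p = 1.19e-09 by limma). NGFR lay at 5.00, 5.83 and 6.37 in KD2 and at 4.50, 4.91 and 5.16 in KD3. These ranges overlapped, and the difference was -0.86 (SE 0.13, adjusted p = 1.52e-07 by limma). EGFR differed least of the 7, at -0.43 (SE 0.16, adjusted p = 0.0333 by limma), and without the array of MITF siRNA it was no longer called, at -0.39 (adjusted p = 0.0774). Of the 8 other EGFR probe sets, 3 were called lower (-0.85, -0.67 and -0.33) and 5 were not called.

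ZEB1 went the other way. Its log2 intensity was 8.69, 9.08 and 9.36 (lowest, median and highest) in KD2 and 9.45, 9.68 and 9.91 in KD3, so every KD3 array stood above every KD2 array. The difference was 0.64 (SE 0.08, adjusted p = 1.74e-09 by limma), or 1.56-fold, and its 3 other probe sets were also called higher, at 0.44, 0.56 and 0.86. Among the 4 factors of the epithelial-mesenchymal transition listed here, ZEB1 was thus higher in KD3 and ZEB2, SNAI2 and TWIST1 lower. Of their relatives, TWIST2 was higher (0.60) and SNAI1 was not called (-0.09), both below noise.

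AXL and HMGA2, which are bright, were not called between KD3 and KD2. AXL lay at 9.98, 10.66 and 10.98 in KD2 and at 10.13, 10.66 and 10.73 in KD3, a difference of -0.04 with a 95% interval of -0.22 to 0.13. The dimmer AXL probe set was called higher, at 0.54. HMGA2 lay at 10.39, 11.05 and 11.73 in KD2 and at 9.51, 10.83 and 11.52 in KD3, with a difference of -0.29 and an interval of -0.62 to 0.05. Of its 8 dim probe sets, 2 were called lower (-0.48 and -0.44), 2 higher (0.98 and 0.15) and 4 were not called. MITF itself, which is no member of the list, lay at 8.65, 9.02 and 9.28 in KD2 and at 5.67, 7.47 and 7.99 in KD3, the lowest value being that of its own siRNA.

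In all, 8 of the 10 genes were called between KD3 and KD2 at an adjusted p under 0.05, 1 higher and 7 lower, where 47.5% of all 19775 genes were called, 20.5% higher and 27.0% lower. The median difference was -0.73 over the 10 genes and -0.03 over all genes. The 7 lower genes include SNAI2 and ZEB2, which belong to the differentiated state in the melanocyte lineage, so they do not all mark the invasive state. Each array carries another siRNA, so the batch and the siRNAs in it cannot be told apart, and the spread in these tests is that over siRNAs. Nothing in the labels says that arrays of a batch came from separate experiments, so the p-values cover only the spread among these cultures.

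**Figure D2:**
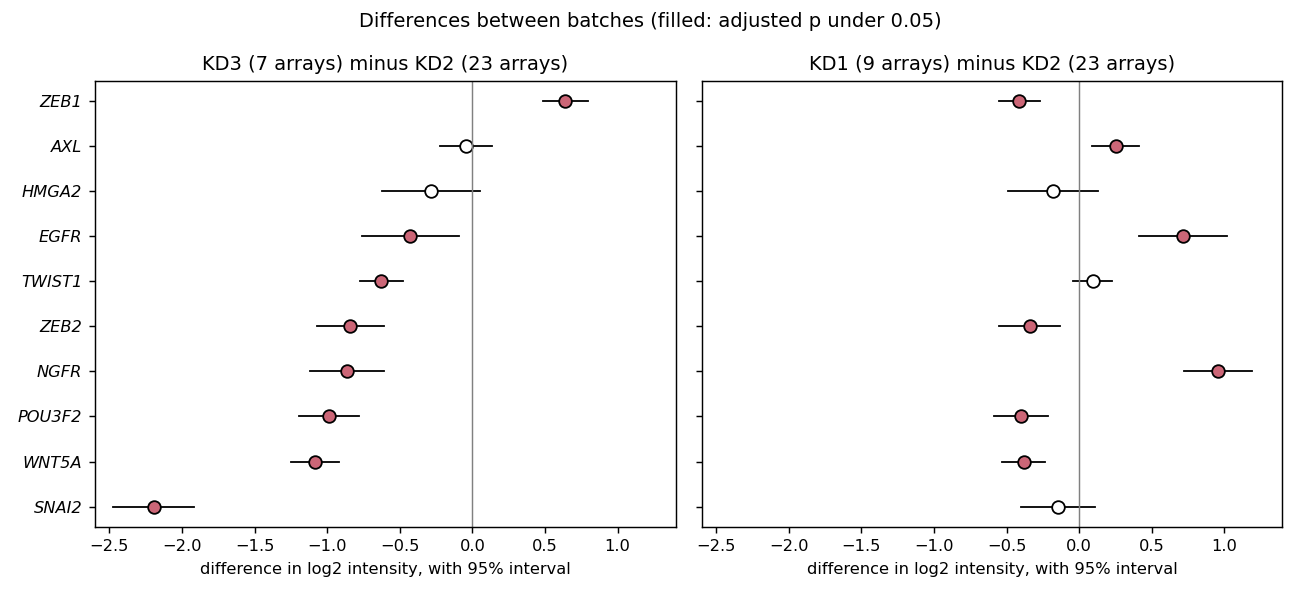
Difference in mean log2 intensity (horizontal axis) of KD3 from KD2 on the left and of KD1 from KD2 on the right, with 95% intervals and filled points for an adjusted p under 0.05 by limma. On the left ZEB1 lies at 0.64 and SNAI2 at -2.20, and on the right NGFR lies at 0.96 and ZEB1 at -0.41.

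Batch KD1 differed from KD2 in another set of the genes. The main probe sets of the receptors were higher: NGFR at 6.36, 6.78 and 7.17 in KD1 overlapped KD2 only at its lower end and differed by 0.96 (SE 0.12, adjusted p = 2.75e-09 by limma), EGFR by 0.72 (SE 0.15) and AXL by 0.25 (SE 0.08). AXL's dimmer probe set was higher too, by 0.39. The EGFR probe sets disagreed: of the 8 others, 2 were called higher (both 0.21), 3 were called lower (-0.63, -0.46 and -0.23) and 3 were not called, so no direction is given for EGFR as a gene. ZEB1 (-0.41), POU3F2 (-0.40), WNT5A (-0.38) and ZEB2 (-0.34) were lower at their main probe sets. The second probe sets of WNT5A (0.31) and POU3F2 (0.23, adjusted p = 0.0464 by limma) were called higher, against their main ones. Of the 3 other ZEB1 probe sets, 2 were called lower (-0.91 and -0.46), as was 1 of the 4 other ZEB2 probe sets (-0.47), and the rest were not called. SNAI2, TWIST1 and HMGA2 were not called, with differences of -0.15, 0.09 and -0.18. Of the 8 dim HMGA2 probe sets, 2 were called lower (-0.80 and -0.39) and 2 higher (0.21 and 0.24). By main probe sets this made 7 of 10 genes called, 3 higher and 4 lower, where 49.1% of all genes were called, 26.2% higher and 22.9% lower. Between KD3 and KD1, whose arrays also enter the comparisons above, 9 of the 10 genes were called where 54.2% of all genes were, 22.7% higher and 31.5% lower. NGFR was at -1.82 there and the main EGFR probe set at -1.14, neither with overlap, and ZEB1 at 1.05. HMGA2, at -0.11, was the gene not called.

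Of the variance of each gene over the 39 siRNA arrays, batch took 86.3% for SNAI2, 82.8% for WNT5A, 79.0% for NGFR, 78.3% for ZEB1, 70.9% for POU3F2, 69.1% for TWIST1, 58.0% for ZEB2, 47.6% for EGFR, 22.9% for AXL and 7.68% for HMGA2. The median over all genes was 33.8%, and over genes above noise 66.1%. AXL and HMGA2 thus varied mainly within batches, and SNAI2 and WNT5A mainly between them.

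The ligands, receptors and partners of the 10 genes were read from lists, to be set beside the 20.5% of all genes called higher and 27.0% called lower in KD3 than in KD2. Of 4 relatives of AXL, the ligands GAS6 (-0.32) and PROS1 (-0.29) and the sister receptor TYRO3 (-0.91) were called lower in KD3 than in KD2, and MERTK was not called. All 4 are below noise. Of 9 receptors and relatives of WNT5A, 5 were lower and 0 higher: FZD7 at -1.11, the ROR1 receptor at -1.004, FZD4 at -0.97, FZD2 at -0.91 and the ligand WNT5B at -0.18. RYK and FZD5 were not called. Of these 9 genes only FZD7 and RYK are above noise, so the other lower ones were read from dim probe sets. In the EGFR list, 4 of 9 genes were higher and 2 lower. ERBB3 and ERBB2, its sister receptors, were lower, at -0.72 and -0.74, whereas ERRFI1, which inhibits EGFR, was higher by 0.70 and the ligand HBEGF by 0.29. ERBB2 and HBEGF are below noise. Of 4 measured partners of NGFR only the neurotrophin receptor NTRK2 was called, at -0.21 and at a dim probe set.

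The wider state lists were also compared. Of 42 further genes of the invasive state, 7 were called higher and 26 lower in KD3 than in KD2, where 20.5% of all genes were higher and 27.0% lower, with a median difference of -0.46. The 4 with the largest differences above noise were all lower: the corepressor TLE4 at -1.85, the Wnt antagonist DKK1 at -1.51, the matrix protein THBS1 at -1.36 and HEG1 at -1.23. The growth factors FGF2 (1.26) and INHBA (1.21), chosen after their values were seen, were the opposite. Of 14 neural crest genes, 8 were lower and 2 higher, with a median of -0.53, among them S100B at -2.28, TFAP2B at -1.59 and SOX2 at -0.83. Of 17 melanocytic genes, 7 were lower and 3 higher, among the lower ones SOX10 at -0.68 and MITF at -1.73. The KD3 mean of MITF includes the array of its own siRNA, at 5.67 against a KD3 median of 7.47. Of 18 AP-1, TEAD and TGF-beta effectors, 6 were higher and 6 lower. The largest above noise were the receptor TGFBR2 at -0.91 and the AP-1 subunit FOSL1 at 0.54. Of 8 factors and junction genes of the epithelial-mesenchymal transition beside the 10, 2 were lower, FN1 at -0.98 and VIM at -0.28, and 2 higher, TWIST2 at 0.60 and CDH2 at 0.29.

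**Figure D3:**
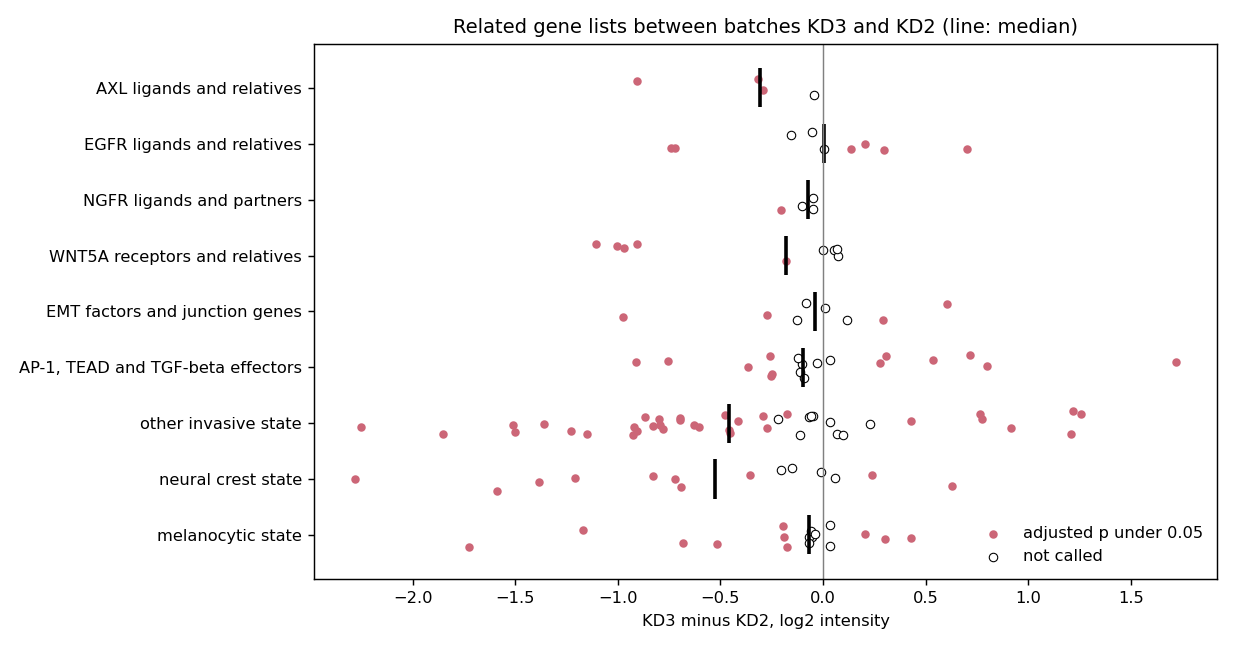
Difference in log2 intensity of KD3 from KD2 (horizontal axis) for the genes of each related list (rows), with filled points for an adjusted p under 0.05 by limma, open points for genes not called and a vertical line at the median of the list. The invasive list had its median at -0.46 and the neural crest list at -0.53, against -0.03 over all genes.

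Some markers of other cell types also differed between KD3 and KD2, most of them below noise. Of 6 keratinocyte markers 2 were called lower and 1 higher, of 4 leukocyte markers 1 was called lower, and of 7 endothelial and fibroblast markers 3 were called lower and 0 higher, LUM at -1.48, DCN at -0.51 and PECAM1 at -0.27. The keratin KRT14 was at 4.65 in KD3 and 6.75 in KD2 on the mean (difference -2.10), below noise in both. The summed intensity of the 6 keratinocyte markers ranged from 2439 to 2776 in KD3 and from 2259 to 2788 in KD2. Most of this sum is KRT10, at a mean log2 intensity of 11.2 against 6.58 for KRT14, the next brightest, so it says little of the others. The summed intensity of the 4 leukocyte markers ranged from 90.9 to 104 in KD3 and 86.8 to 116 in KD2. That of the 7 endothelial and fibroblast markers ranged from 358 to 450 and from 422 to 547, with a KD3 median of 402 below the lowest KD2 array. Their part in the batch differences was not tested.

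Cells given control siRNA and untreated cells were the only replicated conditions. No probe set of 54675 was called between them by limma, at a smallest adjusted p of 0.9999, while 97 had an unadjusted p under 0.05. The main probe sets of the 10 genes were not among these, and of their 26 other probe sets 1 was, a dim one of EGFR at -0.36 (unadjusted p = 0.0453, adjusted p = 0.9999 by limma). NGFR had log2 intensities of 7.33, 6.23 and 4.67 in control siRNA arrays 1, 2 and 3 and of 5.90, 5.96 and 4.74 in the untreated arrays. The groups overlapped, and the difference of 0.55 had an interval of -1.04 to 2.13. AXL was at 11.04, 10.54 and 10.67 against 10.34, 10.60 and 10.79 in the untreated arrays, a difference of 0.18 with an interval of -0.26 to 0.61. For HMGA2, values of 10.36, 10.93 and 10.37 stood against 10.57, 10.54 and 10.48, a difference of 0.02 (-0.40 to 0.45). These intervals come from a fit that did not pair the arrays by number. For NGFR and AXL they include a 1.5-fold higher level, which could not have been detected in that fit. Of the other genes, all but HMGA2 also had intervals that include a 1.5-fold higher or lower level. They were widest for SNAI2 (-2.09 to 1.99), and for ZEB1 -0.70 to 0.51.

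For several of the genes, arrays of the same number were alike in both groups. SNAI2 was at 7.08, 7.54 and 5.03 in control siRNA arrays 1, 2 and 3 and at 7.68, 7.13 and 5.01 in untreated arrays 1, 2 and 3. The near copies were thus the low pair. WNT5A had 8.79, 9.11 and 8.01 against 8.78, 9.19 and 7.86, with the same pair low. ZEB1 was highest in that pair, at 9.47 and 9.46. AXL and HMGA2, given above, did not follow the number, AXL being highest in control siRNA array 1 and lowest in untreated array 1. Of the 10 genes, 9 lay within the range of the KD3 arrays in control siRNA array 3 and 6 in untreated array 3, against 2 or 3 in the other 4 arrays. Within the range of KD2 lay 10 in control siRNA array 2, 10 in untreated array 2 and 9 in untreated array 1. Control siRNA array 1 had 8 within the range of KD1. The share of all genes within these ranges was not computed, so the counts are only described.

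Within batches, single siRNA arrays were set against the median of their batch. There is 1 array per siRNA, so these differences have no test, and a difference of at least 1.5-fold (0.58 on the log2 scale) was counted. Of 390 values of the 10 genes, 19 reached it, 9 higher and 10 lower, in 16 arrays. That is 4.87%, against 0.629% of all values of all genes. For the 4 genes above noise it was 7 of 156 values, or 4.49%, against 0.386% of all values of genes above noise. Of these 7, HMGA2 gave 6 and AXL 1. In no array did 2 of the genes above noise reach it.

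**Figure D4:**
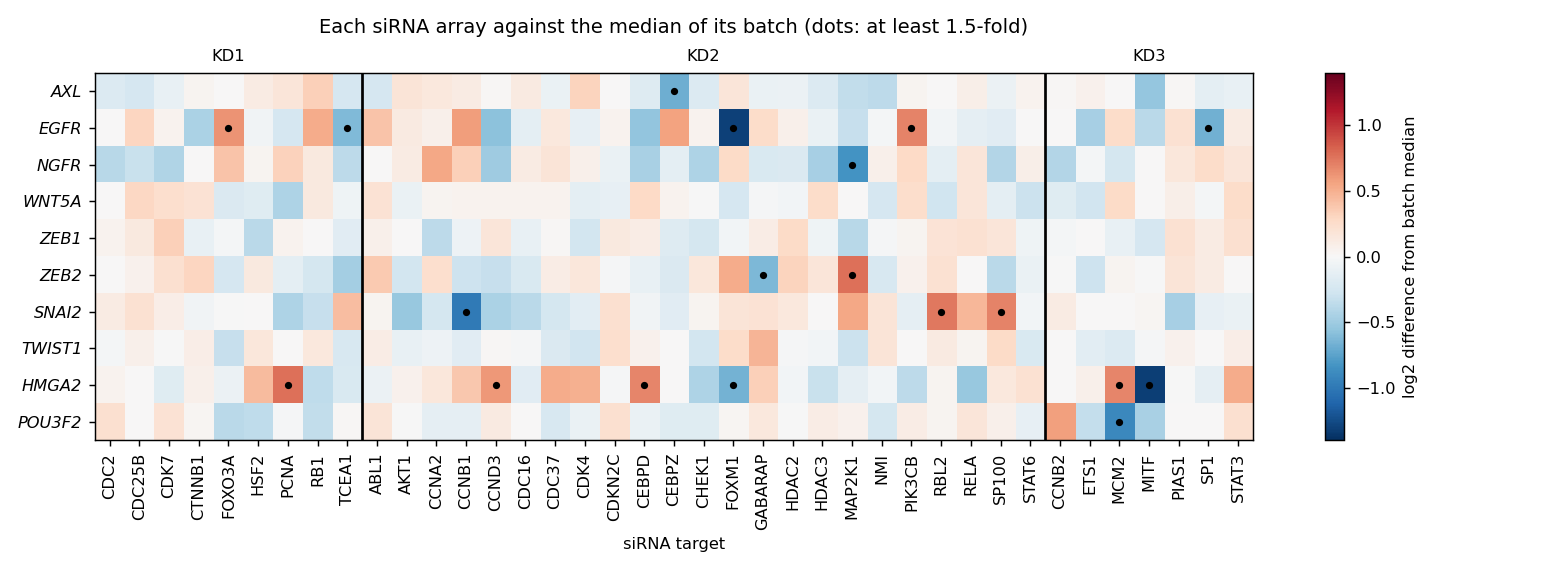
Log2 difference of each of the 39 siRNA arrays (columns, by batch) from the median of its batch for the 10 genes (rows), with dots at 1.5-fold or more. The darkest cells are HMGA2 after MITF siRNA (-1.32) and EGFR after FOXM1 siRNA (-1.31).

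HMGA2 varied most of the 4 genes above noise. In KD3 its log2 intensity was 9.51 after MITF siRNA and 10.70 after SP1, 10.83 after CCNB2, 10.83 after PIAS1, 10.90 after ETS1, 11.35 after STAT3 and 11.52 after MCM2 siRNA. The MITF array was the lowest of all 45, the control siRNA and untreated arrays included, whose values began at 10.36. Its difference from the batch median was -1.32, a 2.50-fold lower intensity, and only 1 of the 4800 genes above noise stood lower in that array. The share of genes above noise past 1.5-fold there was 1.02%. The next lowest HMGA2 value, after siRNA against the cell cycle factor FOXM1, was -0.66. The highest were those after siRNA against PCNA (0.77) and MCM2 (0.69), which serve DNA replication, CEBPD (0.68) and CCND3 (0.60). The 8 other HMGA2 probe sets were all below noise. In the MITF array their differences ran from -0.82 to 0.45, with 3 at or above 0.

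MITF siRNA took MITF itself to 5.67 from a batch median of 7.47 (-1.80, and -2.28 at its second probe set). Besides HMGA2, AXL was lower in that array, at 10.13 against a KD3 median of 10.66, a difference of -0.54 that was the second lowest of 39, but its dimmer probe set was at -0.09. POU3F2 was at 6.64 against 7.09, also the second lowest. ZEB1 was at -0.23 and EGFR at -0.37. NGFR, WNT5A, ZEB2, SNAI2 and TWIST1 lay within 0.03 of the batch median. None of the 10 genes was higher by 1.5-fold there. In the same array FN1 (0.94), DKK1 (1.19), TLE4 (0.74) and FST (0.61) were higher. The last 3 were the only ones of the 42 further invasive genes higher by 1.5-fold. Of the 42, 0 were lower by 1.5-fold, where 0.951% of all genes were past it in either direction. INHBA, of the same list, was just inside the bound at -0.58. The fibroblast marker LUM, below noise, was just past it at 0.59, and the other 6 endothelial and fibroblast markers were not. The arrays of STAT3 and PIK3CB siRNA also had 3 of the 42 further invasive genes higher and 0 lower by 1.5-fold.

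The array for MAP2K1, the gene of the kinase MEK1 that phosphorylates ERK, held the extreme value of 3 of the 10 genes. The share of all genes with their extreme value in this array was not computed, so this count is only described. NGFR was at 5.00 against a KD2 median of 5.83, a difference of -0.83 and the lowest of 39. ZEB1, at 8.69 against 9.08, was also the lowest, at -0.39, and TWIST1 at -0.30 was the second lowest. ZEB2, by contrast, was at 6.995 against 6.23, a difference of 0.77 and the highest of 39.

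SNAI2 in this array was at 7.75 against 7.21, at 0.54 the third highest. AXL was at -0.35, the fourth lowest, and its dimmer probe set was the lowest at -0.52. WNT5A (0.00), POU3F2 (0.06) and HMGA2 (-0.13) stayed near the median. The second ZEB2 probe set was likewise the highest of 39, at 0.72. The other ZEB1 probe sets were at -0.23, -0.14 and 0.01, so the low ZEB1 value was that of the brightest one. Of the 10 genes, 2 were past 1.5-fold in this array, ZEB2 higher and NGFR lower, where 1.46% of all genes were past it. ZEB1, TWIST1, AXL and SNAI2 were not, and for them only the rank among 39 arrays is given.

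The invasive list was lower in this array as well. Of its 42 genes, 30 were below the batch median and 6 were lower by at least 1.5-fold with 0 higher. The median was -0.15, against 0 over all genes. In this array 1.46% of all genes were past 1.5-fold in either direction, and the share in each direction was not computed. Among those above noise, S100A2 (-0.99), INHBA (-0.89), CCN1 (-0.56) and TPM1 (-0.46) differed most, and only S100A2 and INHBA of them reached 1.5-fold. The others of the 6, NTM (-1.06), SYNJ2 (-0.91), COL13A1 (-0.77) and CCN2 (-0.72), are below noise. FOSL1, the AP-1 subunit that ERK activity sustains, was at -0.60. The neural crest genes CDH19 (0.82) and SOX2 (0.72) were higher. LUM, a fibroblast marker below noise, was at 0.89, and the other endothelial and fibroblast markers reached neither bound of 1.5-fold.

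**Figure D5:**
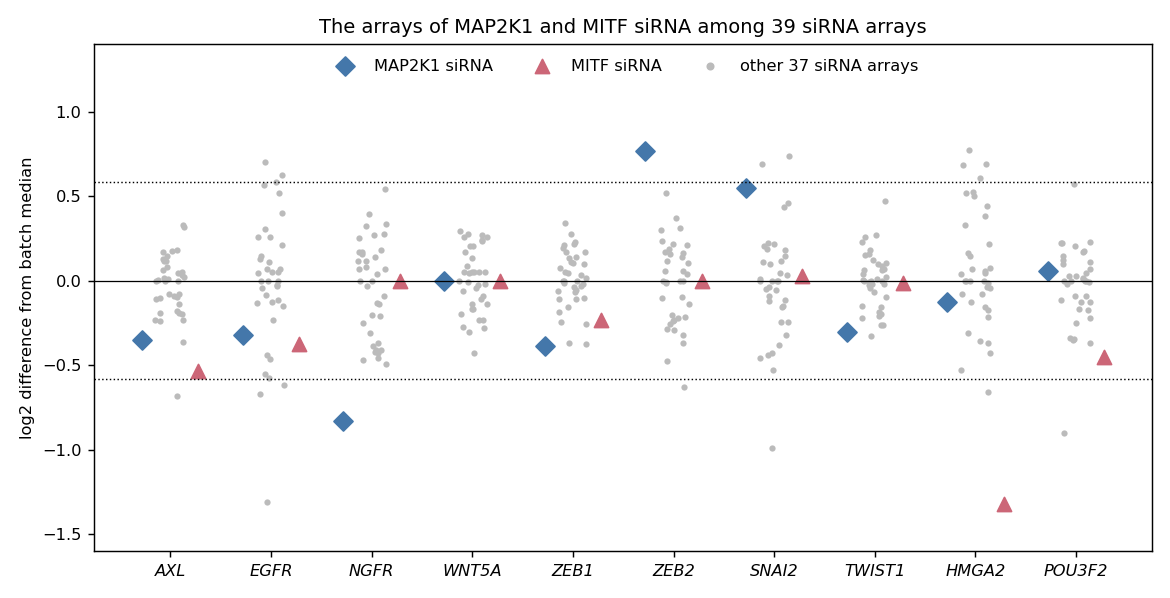
Log2 difference from the batch median (vertical axis) of the 10 genes in the 39 siRNA arrays, with diamonds for MAP2K1 siRNA, triangles for MITF siRNA, grey points for the other 37 arrays and dotted lines at 1.5-fold. MAP2K1 siRNA gave the lowest NGFR (-0.83) and ZEB1 (-0.39) and the highest ZEB2 (0.77), and MITF siRNA gave the lowest HMGA2 (-1.32).

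The remaining extremes were spread over other siRNAs. AXL was lowest after siRNA against the CCAAT-binding factor CEBPZ, at 9.98 against 10.66 (-0.68), where 4 of the 4800 genes above noise stood lower, and its dimmer probe set was at -0.24. AXL was highest after RB1 siRNA, at 0.33, where its dimmer probe set was at -0.04. EGFR was lowest after FOXM1 siRNA, at 4.86 against 6.18 (-1.31), but its 8 other probe sets lay between -0.23 and 0.08 there, and 1.54% of all genes were past 1.5-fold. After siRNA against PIK3CB, a catalytic subunit of PI3 kinase, EGFR was highest, at 6.88 (0.70), and 2 more of its probe sets were the highest of 39, at 0.70 and 0.81, while the other 6 were not above 0. In the PIK3CB array 0.905% of all genes were past 1.5-fold.

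SNAI2 was lowest after CCNB1 siRNA (-0.99), where 0.475% of all genes were past 1.5-fold, and highest after siRNA against RBL2 (0.74) and SP100 (0.69). ZEB2 was lowest after GABARAP siRNA (-0.63), where TWIST1 was highest (0.47). The other ZEB2 probe sets lay between -0.09 and 0.35 in that array, and all ZEB2 probe sets are below noise. POU3F2 was lowest after MCM2 siRNA (-0.90), where HMGA2 was at 0.69, and highest after CCNB2 siRNA (0.57). The second POU3F2 probe set was at -0.26 after MCM2 siRNA and at 0.39 after CCNB2 siRNA. WNT5A stayed between -0.43 after PCNA siRNA and 0.29 after CDC25B siRNA, and never reached 1.5-fold. ZEB1 was highest after CDK7 siRNA (0.34), TWIST1 was lowest after FOXO3A siRNA (-0.33), and NGFR was highest after CCNA2 siRNA (0.54). Neither ZEB1 nor TWIST1 reached 1.5-fold in any array.

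A further 4 siRNAs were read whatever their values. After STAT3 siRNA HMGA2 was at 0.52, WNT5A at 0.26 and ZEB1 at 0.23, and none of the 10 genes reached 1.5-fold. After siRNA against CTNNB1, which encodes beta-catenin, ZEB2 was at 0.30, WNT5A at 0.21 and EGFR at -0.44. After ETS1 siRNA EGFR was at -0.47, POU3F2 at -0.34 and ZEB2 at -0.29. After SP1 siRNA EGFR, at -0.67, was past the bound and the other 9 genes were not.

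How the genes varied together over the 39 batch-centred arrays was tested for 55 pairs, 45 among the 10 genes and 10 with MITF, by 2-sided permutations within batches. Spearman's rho passed at an adjusted p under 0.05 for 4 pairs and had an unadjusted p under 0.05 for 10. These were AXL with NGFR (rho 0.53, p = 0.000860, adjusted p = 0.0368, 100000 permutations), ZEB1 with POU3F2 (0.51, adjusted permutation p = 0.0368), NGFR with SNAI2 (-0.49) and ZEB1 with TWIST1 (0.48), both with an adjusted permutation p of 0.0395. By Pearson's r none passed, the r of AXL with NGFR being 0.46 (permutation p = 0.00420, adjusted p = 0.0887), or 0.58 without the 2 arrays farthest from the AXL median. The r of the other 3 pairs was 0.42 for ZEB1 with POU3F2, -0.48 for NGFR with SNAI2 and 0.42 for ZEB1 with TWIST1 (adjusted permutation p of 0.0887, 0.0887 and 0.104), and 0.44, -0.41 and 0.45 without such arrays. The rho of AXL with NGFR was 0.67 in KD1, 0.61 in KD2 and -0.43 in KD3, so its sign was not the same in all batches. That of ZEB1 with TWIST1 was -0.17, 0.65 and 0.75, while ZEB1 with POU3F2 (0.38, 0.50 and 0.61) and NGFR with SNAI2 (-0.72, -0.39 and -0.75) kept their sign. None of the 4 pairs passed within KD2 alone or with the probe sets of largest variance. NGFR, POU3F2, SNAI2 and TWIST1 are below the noise limit, TWIST1 only just, at a median of 8.58 against 8.59. Each of the 4 pairs thus holds a probe set below the limit, and NGFR with SNAI2 are both dim.

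The genes above noise whose pattern over the 39 centred arrays was most like each bright gene, by Spearman's rho and without a test, were COX5A (0.71), ITGB1BP1 (0.66) and CCDC9B (0.64) for AXL. For WNT5A they were NET1 (0.62), BCL10 and KLF10, for ZEB1 CFAP97 (0.58), ASPM and WASL, and for HMGA2 DCBLD2 (0.51), POGLUT2 and ALDH2. All points share the array and its normalisation.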

How the data were processed

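The authors hybridised A375 RNA to Affymetrix Human Genome U133 plus 2.0 arrays and normalised them with RMA, whose version is not given in the sources used here. The deposited values are linear intensities, taken here to log2 without further normalisation. Groups came from the labels and batches from the study's list of targets. In the platform annotation, 41097 of 54675 probe sets carried a single gene name, 1801 several and 11777 none. A gene was read from its probe set with the highest mean. Batches, and control siRNA with untreated, were compared in limma 3.58.1 (R 4.3.3), with Benjamini-Hochberg adjustment over all probe sets and a threshold of 0.05. Single arrays were set against their batch median without a test. Pairs were tested with 100000 permutations within batches in Python 3.11.15, numpy 2.4.6, pandas 2.3.3 and scipy 1.17.1. Both tests were tried on simulated data.

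The 10 genes and the lists were chosen with earlier results of these data known. Beside the 10 genes, the text names up to 4 genes a list with the largest difference above noise, partners of the 10 genes, 3 most similar genes for each bright gene, the arrays of their extreme values and those of 7 siRNAs of interest. Deviations from the group mean were correlated between control siRNA and untreated arrays that share a number (r of 0.580, 0.671 and 0.890, the last being the near copies). The numbers were taken to pair them only in the replicate block, an alternative fit. The main fit of control siRNA against untreated did not use this pairing. Alternatives varied the probe set, the reference, the fold, the noise limit, the normalisation and the arrays used. Arrays have no read depth, and their number limits the precision. A further 6 targets of the study were not analysed here.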

Additional observations from a re-analysis of the deposited data

How the results depend on the processing

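Of 136 refits of single genes in the batch and control comparisons, 129 kept their direction and their side of the threshold. AXL between KD3 and KD2, not called at -0.04, was at 0.030 without the array of MITF siRNA and at 0.54, and called, with the probe set of largest variance. EGFR was called lower in KD3 except without the array of MITF siRNA. With probe sets above noise only, fewer genes are tested, and the genes called were 3 (KD1 against KD2), 2 (KD3 against KD2) and 3 (KD3 against KD1), and the probe sets called 5425, 5825 and 6046, in place of 24320, 22850 and 26293. Control siRNA against untreated gave 0 calls under every setting, leaving out each array and the replicate block (0 genes called) included. Leaving out each array in turn moved NGFR from -0.081 to 1.25, AXL from 0.03 to 0.28 and HMGA2 from -0.17 to 0.12, and the block, and the block without the near copies, which was chosen after seeing the data, changed no call.

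The 19 single-array values past 1.5-fold became 4 with the median over all probe sets, 72 against the median of all 39 arrays without centring, 117 against the control siRNA mean, 7 for genes above noise only and 2 at 2-fold. Against either uncentred reference a value holds the batch difference too. EGFR changed sign after FOXO3A siRNA (-0.022) and PIK3CB siRNA (-0.079) with the median over probe sets, and after TCEA1 siRNA without centring (0.018) and against control siRNA (0.16). HMGA2 after CEBPD siRNA was at -0.11 with the probe set of largest variance. The 4 passing pairs became 1 without centring, 23 over all 45 arrays, and 0 in KD2 alone, with the probe sets of largest variance, without the arrays of MITF and PIK3CB siRNA and with Pearson's r. Without the array of MAP2K1 siRNA, also chosen after seeing the data, 3 passed. Without centring and over all 45 arrays, NGFR with SNAI2 was at 0.18 and 0.25 and ZEB1 with TWIST1 at -0.34 and -0.43, and ZEB1 with POU3F2 was at -0.055 over all 45 arrays. The cause of the other changes was not tested. Signal over the noise limit bounds what 6 of the 10 genes can show.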
